A study of Caenorhabditis elegans with 2 samples.

Results

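Peaks of PHP-3, a Hox protein of the posterior group, were described at 10 other genes of the Hox system of the nematode Caenorhabditis elegans, of 19973 protein-coding genes in all. The genes were chosen by name: the Hox genes ceh-13, lin-39, mab-5 and egl-5, the cofactor genes ceh-20, ceh-40, ceh-60 and unc-62, and the posterior homeobox genes pal-1 and vab-7. A peak was counted for a gene when its summit, the position the deposited lists name within each peak, lay in the gene body or upstream as far as the next protein-coding gene, a stretch called the gene's territory here. All worms were L4 larvae of strain RW12213, 48 hours of age, synchronised by starving L1 larvae after bleaching. They carried the insertion st12213, which puts TY1, EGFP and 3xFLAG tags on php-3 at its own locus on chromosome III. Chromatin of whole worms was recovered with an antibody against GFP and sequenced (ChIP-seq) in 2 biological replicates of this 1 strain, so there was no second condition to compare. In whole-worm chromatin, binding in few cells and weak binding in many cannot be told apart.

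Hox genes encode homeodomain transcription factors that give cells along the body axis their regional identity. PBC proteins (relatives of vertebrate Pbx and fly Extradenticle) and Meis proteins (relatives of fly Homothorax) bind DNA together with Hox proteins. In C. elegans, ceh-13 is the anterior Hox gene, lin-39 acts in the mid-body, mab-5 in the posterior body and egl-5 in the tail. PAL-1 is the worm's Caudal protein, which specifies posterior blastomere fates, and VAB-7 is its Even-skipped protein, which patterns posterior cells.

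Of the 10 genes, 3 had a summit of the series-wide thresholded list in their territory, with 4 summits in all, and all 3 were cofactor genes: ceh-60 with 2 summits, and unc-62 and ceh-20 with 1 each. None of ceh-13, lin-39, mab-5, egl-5, ceh-40, pal-1 and vab-7 had one. Among all protein-coding genes, 15.3% had a summit in a territory drawn the same way. The territories of the 10 genes were longer than most, with a median of 13.8 kb against 3.54 kb over all genes, and a longer stretch holds more summits. The 4 summits lay in 126 kb, since the territories of lin-39 and ceh-13 share 19.0 kb, which is 3.19 per 100 kb. The whole genome held 3.55 per 100 kb. The share of marked genes was therefore read by territory length.

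Among territories under 5 kb, 1 of the 2 members was marked (ceh-20, not ceh-40), against 9.58% of all such genes. Neither pal-1 nor vab-7, the 2 members of 5 to 10 kb, was marked, against 21.3% of genes of that length. At 10 to 20 kb, ceh-60 was marked and mab-5 was not, against 29.9% of genes. At 20 to 50 kb, unc-62 was marked and ceh-13, lin-39 and egl-5 were not, against 40.7% of genes. At the shares of these length classes, 10 genes of the same lengths would add up to 2.85 marked genes, beside the 3 counted.

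**Figure D1:**
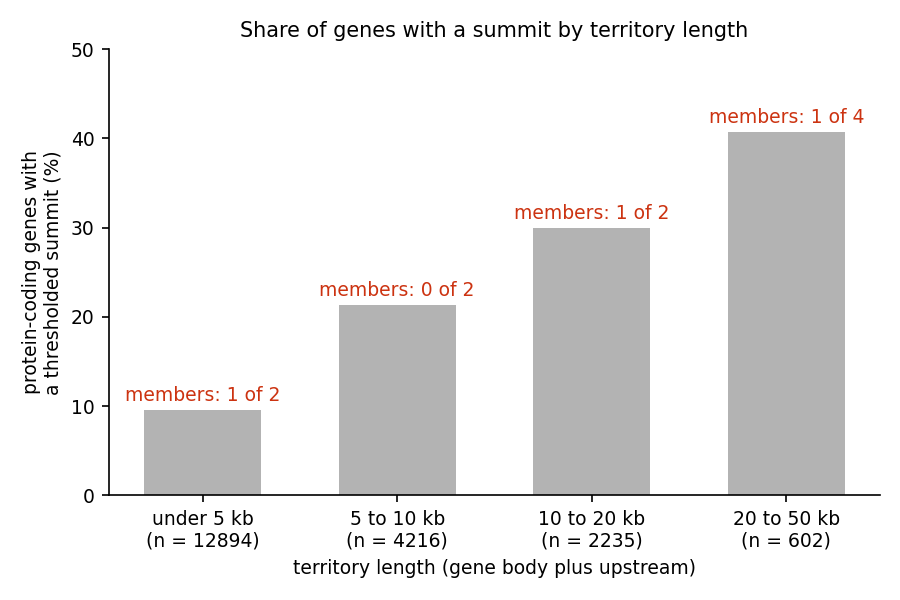
Bars give the percent of protein-coding genes with a summit of the series-wide thresholded list in their territory, by territory length, and the text above each bar gives the members marked. The share of genes climbs from 9.58% to 40.7% with length, and the members' counts are 1 of 2, 0 of 2, 1 of 2 and 1 of 4.

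The DNA under these summits is given first, as 101 bases centred on the summit, read on the plus strand of ce11, 5′ to 3′. Capitals mark matches, on either strand, to any of 6 short motifs. Posterior Hox proteins and Caudal share the core TTTATG, and posterior Hox proteins also bind the core TTTACG. The general homeodomain core is TAATTA, the composite of Hox with PBC proteins is TGATNNAT (N is any base) and the Meis core is TGACAG. For GATA factors the form AGATAA alone was searched, and other forms, such as TGATAA, were not. The unc-62 window overlaps a 5′ UTR, so 30 bases that hold its match are shown.

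ceh-60, intron, chrX:6522959-6523059: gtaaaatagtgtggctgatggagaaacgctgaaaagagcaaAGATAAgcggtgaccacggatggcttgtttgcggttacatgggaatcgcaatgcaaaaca
ceh-60, upstream, chrX:6530768-6530868: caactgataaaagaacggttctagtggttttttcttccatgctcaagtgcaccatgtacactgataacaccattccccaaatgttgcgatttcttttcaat
unc-62, chrV:4509485-4509514: TTTATGggctcgtcaaatagttgtctcccc
ceh-20, upstream, chrIII:6978101-6978201: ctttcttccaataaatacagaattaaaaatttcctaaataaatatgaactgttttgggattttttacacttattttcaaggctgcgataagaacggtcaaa

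Among the 4 windows, 1 held TTTATG (unc-62, starting 48 bp before the summit) and 1 held AGATAA (the ceh-60 intron, starting 9 bp before it). Over all 3559 summits of the list, 13.5% of windows held TTTATG and 8.71% held AGATAA. None of the 4 windows held the others, which were found in 6.35% of all windows for TTTACG, in 3.01% for TAATTA, in 9.16% for the composite TGATNNAT and in 5.73% for TGACAG. The free bases of the composite can overlap another motif. The window upstream of ceh-60 did hold TGATAA, a form that was not counted, so the AGATAA shares do not cover all GATA sites. In the longer ranked list, described further on, 9 of 133 member windows (6.77%) held TAATTA, against 3.21% of all 96056, and 11 (8.27%) held AGATAA, against 4.82%. For TTTATG the shares were 6.77% at the members and 7.53% over all. They were 4.51% and 4.25% for TTTACG, 8.27% and 6.88% for the composite, and 3.01% and 3.80% for the Meis core. These are descriptions of letters in windows, and overlapping peaks share bases. GC content was 45.5% in the ceh-60 intron window, 38.6% upstream of ceh-60, 49.5% at unc-62 and 27.7% at ceh-20, against a median of 41.6% over all windows (middle 50%, 34.7 to 49.5%). The ceh-20 window was the one below the middle range.

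The cofactor gene ceh-60 had the strongest peak of the 10 genes. CEH-60 is a PBC protein that acts in the intestine, where it controls vitellogenin production. This gene (WBGene00017690; X, 6522596 to 6530146, minus strand) carried a peak at 6522847 to 6523170 with a signal value of 183, the strength the deposited list gives a peak on a scale that is not stated. It ranked 715 of 3559. Its summit lay in an intron, 7137 bp downstream of the annotated 5′ end and 413 bp inside the 3′ end. The 5′ end of the neighbouring gene ets-4 was closer to it, at 4126 bp. Replicate 1 gave 107 and replicate 2 gave 83.0 at this peak, and both replicates' own thresholded lists held it. The summits in those lists lay 70 and 34 bp from the series-wide one, each in a coding exon of ceh-60.

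The second ceh-60 peak (X, 6530656 to 6530979) lay between ceh-60 and ilys-5, with its summit 672 bp upstream of ceh-60. Its signal value was 133, rank 1459. Replicate 1 gave 70.4 and replicate 2 gave 54.0 there, with scores of 565 and 317 in their own ranked lists. The score, at most 1000, is the lists' measure of how reproducible a peak was, and no thresholded list holds a score under 830. Neither replicate's own thresholded list therefore held this peak, whereas both series-wide thresholded lists did, the conservative one included. Another peak, in the ranked list alone, at 61.2 with a score of 77, lay 3215 bp upstream, where replicate 1 gave 18.3 and replicate 2 gave 45.3. Of all 3559 peaks, 1281 (36.0%) lay in neither own list and 1257 (35.3%) in both.

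The Meis-class gene unc-62 (WBGene00006796; V, 4497461 to 4511449, plus strand) had, of the 4 peaks, the one with the most even replicate signals. UNC-62 is needed with CEH-20 in Hox-dependent migration and patterning, and it also acts in the adult intestine. Its peak (V, 4509371 to 4509694) had a signal value of 143, rank 1263. The summit lay 12072 bp downstream of the outermost 5′ end and 1916 bp before the 3′ end, in an intron of 17 of the gene's 18 annotated transcripts and in the 5′ UTR of the other. The closest 5′ end of any unc-62 transcript was 2329 bp away. Replicate 1 gave 69.7 and replicate 2 gave 67.0. Both had a score of 1000 and both own thresholded lists held the peak.

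The evidence at ceh-20 (WBGene00000443; III, 6979884 to 6981785, plus strand), which encodes the main PBC protein of the worm, was weaker. The summit within its territory was 1733 bp upstream and had a signal value of 8.82, rank 3499 of 3559. Of all peaks in the list, 174 (4.89%) had a signal value under 50. A stronger peak (III, 6977780 to 6978103, signal value 110) overlapped it. The summit of the stronger peak lay 1942 bp upstream of ceh-20, which had the nearest protein-coding 5′ end. It was inside the 3′ UTR of the neighbouring gene F31E3.2, and so outside the territory. At the stronger peak replicate 1 gave 62.2 and replicate 2 gave 47.0, with scores of 900 and 814, so that of the 2 own thresholded lists the one of replicate 1 held it. At the weaker one the nearest replicate 1 peak was this same one, 194 bp away, while replicate 2 had a peak of its own at 6.18. The conservative list held the stronger peak and not the weaker. The weaker peak had a score of 1000 in the series-wide thresholded list and of 73 in the second series-wide ranked list.

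**Figure D2:**
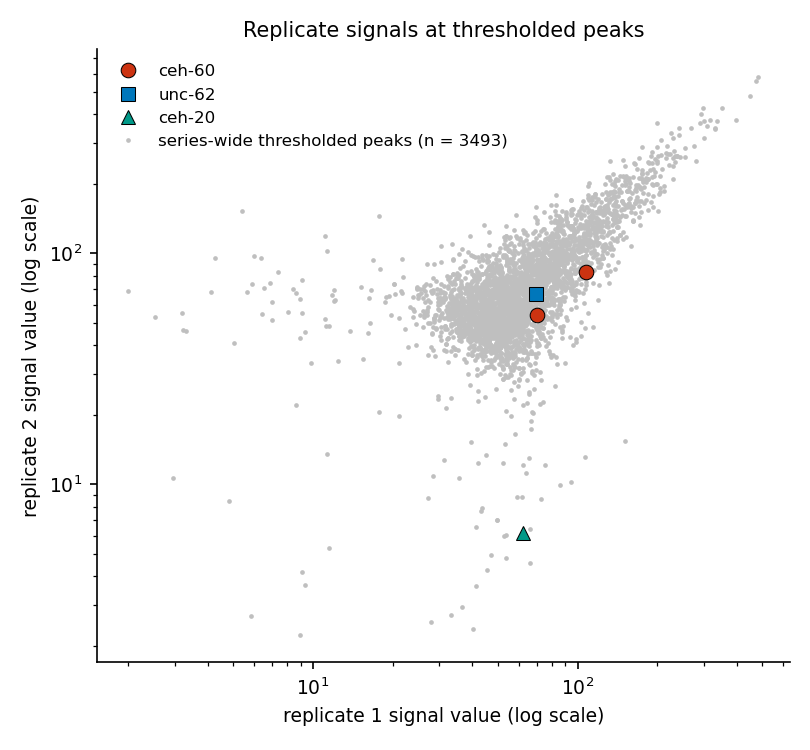
Each point is a peak of the series-wide thresholded list, with the replicate 1 signal value on the x axis and that of replicate 2 on the y axis, both on log scales, for 3493 peaks with a value in both. Peaks of ceh-60 (107 and 83.0, 70.4 and 54.0) and unc-62 (69.7 and 67.0) lie within the main cloud, whereas ceh-20 (62.2, from the overlapping stronger peak, and 6.18) lies below it.

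The 4 Hox genes lie in 2 pairs on chromosome III, and neither pair held a summit of any thresholded list. From lin-39 to ceh-13, 29.4 kb, the series-wide, conservative, replicate 1 and replicate 2 thresholded lists each had 0 summits. From mab-5 to egl-5, 40.3 kb with cyk-7 between them, they also each had 0. Over the genome these lists held, in the same order, 3.55, 3.49, 1.72 and 1.99 summits per 100 kb. Below the limit, the series-wide ranked list had 15 summits in the first stretch and 39 in the second. Over the genome that ranked list held 95.8 per 100 kb. Read depth is unknown, so whether weaker binding there would have been detected was not tested.

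The highest of them was shared by lin-39 (WBGene00003024; III, 7528641 to 7536632, minus strand) and ceh-13 (WBGene00000437; III, 7555660 to 7558041, plus strand), which are transcribed away from each other. This ranked peak had a signal value of 86.3 and a score of 776, under the 830 of the thresholded list. In the second series-wide ranked list its score was 462. Its summit lay 889 bp upstream of ceh-13 and 18139 bp upstream of lin-39. Replicate 2 gave 48.7 with a score of 266, and the ranked list of replicate 1 had no overlapping peak. The 101 bases around it held none of the 6 motifs, and with 58.4% GC they were richer in G and C than the middle 50% of windows. They are shown because this was the Hox gene site nearest the limit.

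ceh-13 and lin-39, chrIII:7554721-7554821: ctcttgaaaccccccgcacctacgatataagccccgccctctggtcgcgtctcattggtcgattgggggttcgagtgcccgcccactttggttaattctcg

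All 12 series-wide ranked summits in the lin-39 territory lay upstream and none in its gene body, where the ranked list of replicate 2 did have peaks. For ceh-13, the same 12 lay upstream, in the stretch that both territories share, and 3 others lay in the body. The highest ranked signal of mab-5 (WBGene00003102; III, 7776835 to 7783454, minus strand) was 58.0, 8680 bp upstream, with a score of 262. The 5′ end of cyk-7 was closer to that summit, at 3275 bp. Replicate 2 gave 39.0 at this peak and replicate 1 had no overlapping peak. That of egl-5 (WBGene00001174; III, 7814374 to 7817141, plus strand), which like php-3 belongs to the posterior group, was 56.9, 4078 bp upstream, with a score of 365. Here replicate 1 gave 39.0 and replicate 2 gave 22.8. No ranked peak of mab-5 scored above 380, and none of egl-5 above 459.

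**Figure D3:**
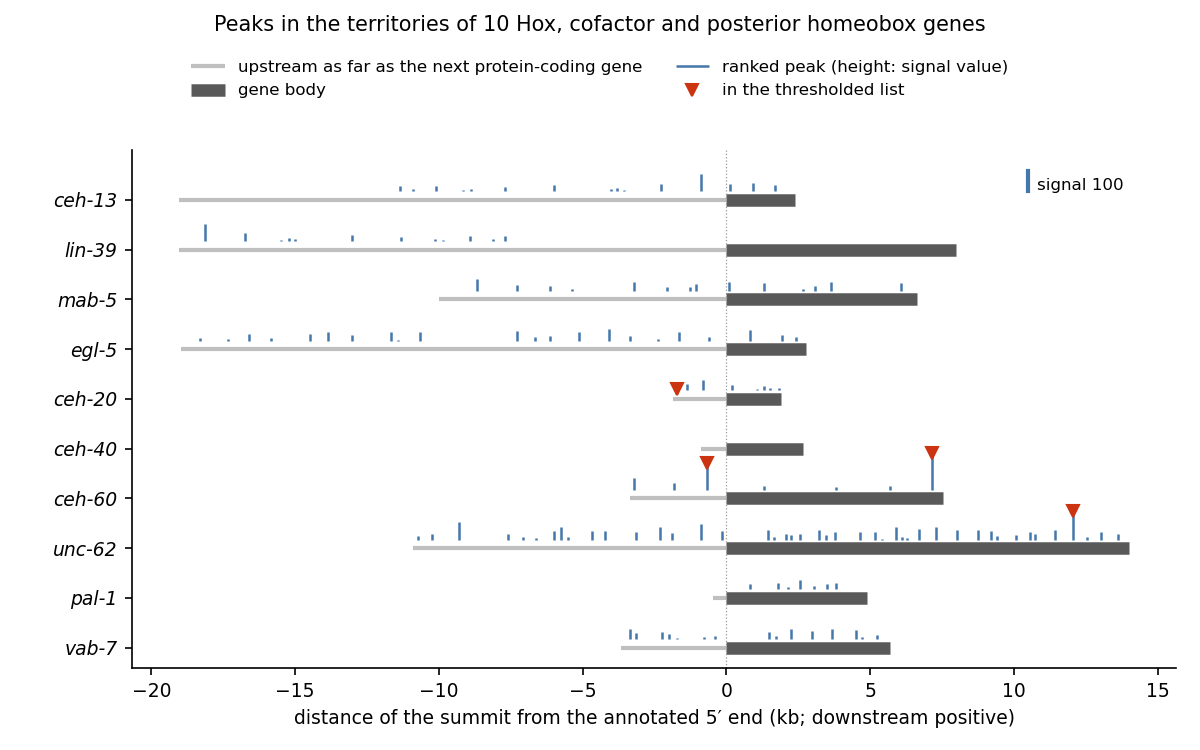
Each row is a gene, with the distance of summits from its annotated 5′ end on the x axis in kb, upstream to the left. Vertical lines are peaks of the series-wide ranked list with heights that give the signal value, and triangles mark the 4 summits in the thresholded list, at ceh-20, ceh-60 (2) and unc-62; unc-62 has the most ranked peaks and ceh-40 none.

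The territory of unc-62 held 44 of the 133 ranked summits of all 10 genes, or 17.7 per 10 kb. The 10 territories together held 106 per 100 kb, against 95.8 in the genome. The densest was not unc-62 but ceh-20, with 21.3 per 10 kb from 8 summits. Some peaks of unc-62 overlapped, and its 44 formed 32 separate stretches. Of the 44, 16 lay upstream and 28 in the gene body, and 20 overlapped a peak in both replicates' own ranked lists. Over all 10 genes, 35 of 133 (26.3%) did so, against 33.3% of the 96056 ranked peaks, and 41 (30.8%) overlapped a peak in neither, against 25.2%. Besides the 20 at unc-62, the peaks found in both own lists were 3 each at mab-5, egl-5, ceh-20 and ceh-60, 2 at vab-7 and 1 at ceh-13. At lin-39 and pal-1 there were none.

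After its thresholded peak, the ranked peak of unc-62 with the highest signal stood just under the limit, at 89.0 with a score of 821, and of 750 in the second list (V, 4487993 to 4488316). Its summit lay 9306 bp upstream of unc-62 and 4696 bp from the 5′ end of exc-15, which was therefore the nearer gene. Replicate 1 and replicate 2 gave 39.0 and 39.1. Its window, shown as the member site closest below the limit, held none of the 6 motifs.

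unc-62, upstream, chrV:4488105-4488205: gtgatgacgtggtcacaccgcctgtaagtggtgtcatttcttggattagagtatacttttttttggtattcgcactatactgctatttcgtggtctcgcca

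The PBC gene ceh-40 (WBGene00000461; X, 12318126 to 12320777, minus strand), which acts with ceh-20 in the embryo, had no ranked peak in its 3.53 kb in any ranked list. Of genes with territories under 5 kb, 27.3% had none in the series-wide list. The territory of pal-1 (WBGene00003912; III, 4804688 to 4809576, minus strand) held 8 summits of the first series-wide ranked list, all in the gene body, with signal values of 3.65 to 46.3 and scores of at most 188. Its highest score in the second list was 216, and just 0.454 kb of its 5.34 kb territory lay upstream. That of vab-7 (WBGene00006873; III, 10920344 to 10926041, plus strand) held 15 in the first list, at 7.77 to 49.3 with scores of at most 160. Its highest score was 275 in the second list, 220 in that of replicate 1 and 25 in that of replicate 2. At the highest peak of vab-7, in an intron, neither replicate's ranked list had an overlapping peak.

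A lower score limit of 540 was tried on the ranked list, chosen after seeing the data. At that limit 5 of the 10 genes had a summit, against 23.3% of protein-coding genes; the shares of the length classes add up to 4.09. The genes added were ceh-13 and lin-39, through their shared peak. In the second series-wide ranked list at the same limit, 2 of the 10 had a summit, ceh-60 and unc-62, against 22.9% of genes and a sum over the length classes of 4.11. The count of 5 therefore holds for the first of the 2 ranked lists and not for the second. In the replicates' own thresholded lists only ceh-60 and unc-62 were marked, against 8.55% of genes in replicate 1 and 9.62% in replicate 2. These shares cover genes of all territory lengths, and no sum over the length classes was made for the own lists. At ceh-60 and unc-62, 1 summit each remained: the peak near the 3′ end of ceh-60 and the unc-62 peak. In both own lists the ceh-60 summit lay in a coding exon and not in the intron.

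The strongest ranked signal in each territory was also set beside that of genes of like territory length. For ceh-60, 183 was above that of 91.3% of genes of 10 to 20 kb, with replicate 1 above 94.2% and replicate 2 above 87.1%. For unc-62, 143 was above 80.6% of genes of 20 to 50 kb, with replicates at 80.6% and 74.9%. For ceh-13 and lin-39, 86.3 was above 58.0% of genes of that length, but in replicate 1 their highest values, 34.8 and 28.5, were above 28.1% and 13.3%. In replicate 2 both had 48.7, above 56.8%. The value of egl-5, 56.9, was above 20.4% of such genes, with replicate 1 above 41.4% and replicate 2 above 16.6%. That of mab-5, 58.0, was above 36.5% of genes of 10 to 20 kb, with the replicates at 16.2% and 48.1%. For ceh-20 the strongest ranked peak was not the thresholded one but a peak of 52.5, 816 bp upstream, with a score of 111 and replicate values of 35.0 and 23.3; it was above 68.3% of genes under 5 kb, with the replicates above 81.5% and 51.7%. The values of pal-1 (46.3) and vab-7 (49.3) were above 34.2% and 39.0% of genes of 5 to 10 kb. For pal-1, replicate 1 was above 42.2% and replicate 2 above 36.8%, and for vab-7 they were above 63.0% and 23.0%. At lin-39, ceh-13, ceh-20, vab-7, egl-5 and mab-5 the replicates thus gave different places. They were closer at ceh-60, unc-62 and pal-1, but at pal-1 the highest peaks of the replicates were different ones. At the strongest series-wide peak of pal-1, replicate 2 gave 28.3 and replicate 1 had no overlapping peak.

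**Figure D4:**
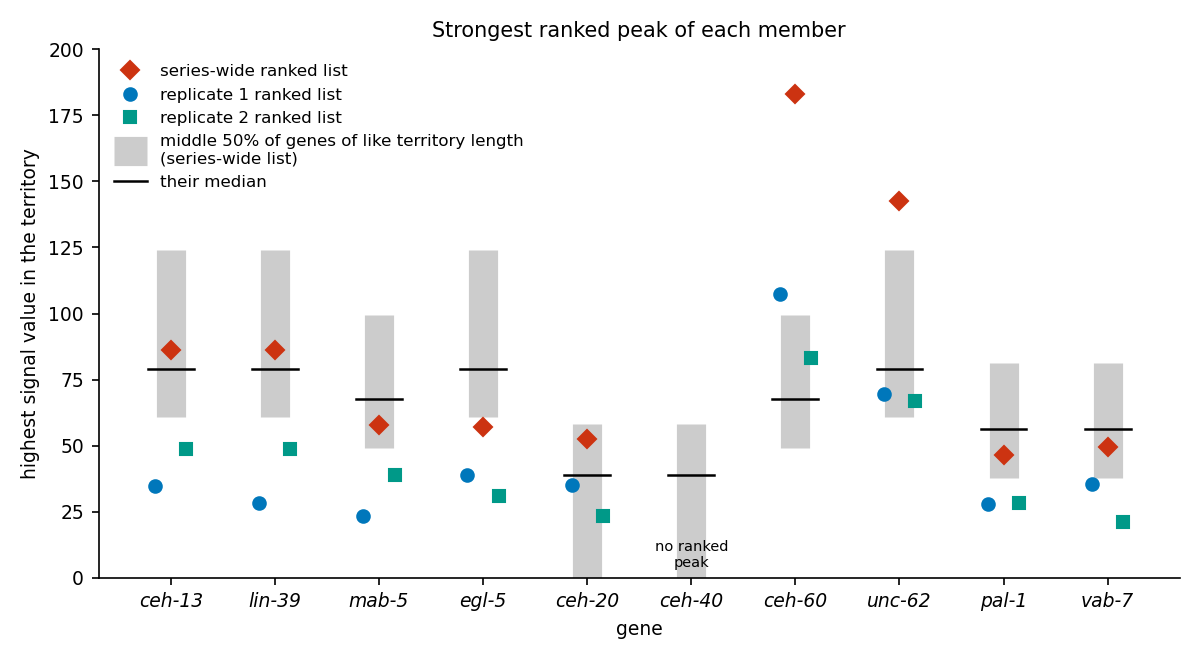
The highest signal value of any ranked peak in each territory is shown for the series-wide list (diamonds), replicate 1 (circles) and replicate 2 (squares), beside the median and the middle 50% of genes of like territory length in the series-wide list. Diamonds of ceh-60 (183) and unc-62 (143) stand above the middle 50%, and that of egl-5 (56.9) stands below it.

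Other genes of the Hox system were counted from a list of 18. Of 10 regulators of Hox genes, 5 had a thresholded summit in their territory, against 15.3% of all genes. At the shares of their length classes, these 10 would add up to 2.66 marked genes, beside the 5 counted. Their lengths differed: those of the marked regulators ran from 5.08 to 31.5 kb and those of the others from 2.92 to 13.6 kb. The marked genes were the chromatin gene egl-27 (5 summits, highest 296, in an intron), sor-1 (2; 175, 524 bp upstream) and sor-3 (1; 128, 285 bp upstream), which keep Hox genes silent outside their domains, the Polycomb gene mes-2 (1; 82.7, 74 bp upstream), and lin-1 (2; highest 114), an ETS factor upstream of lin-39 in the vulva. Replicate 1 and replicate 2 gave 137 and 150 at the highest egl-27 peak, 89.0 and 93.4 at sor-1 and 66.8 and 66.2 at sor-3, all in both own lists. The values were 32.8 and 64.7 at mes-2 and 63.6 and 53.0 at the highest lin-1 peak, and neither own list held them. The others, sop-2, mes-3, mes-6, lin-49 and lin-59, had no summit.

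Of 6 known Hox targets, 1 had a summit, against 15.3% of all genes and a sum over their length classes of 1.55. It was psa-3 (1053, in an intron), which has the longest territory of the 18 genes, while hlh-8, egl-1, egl-18, elt-6 and mig-13 had none. The posterior Hox gene nob-1 had 8 summits in its 24.0 kb, with a highest value of 803, and php-3 itself had none in its own 3.58 kb. The strongest member peak, 183 at ceh-60, was thus well below those of nob-1 and psa-3 in the same list. Lengths in this list ran from 2.92 to 41.5 kb, and it was chosen with earlier results of these data known.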

How the data were processed

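The data were 8 peak lists on assembly ce11. Each replicate had 1 ranked and 1 thresholded list, and the series as a whole had 2 of each kind. Neither the labels nor the headers name an aligner or peak caller. The deposited signal value served to order peaks inside a list; its scale is not stated. The deposited score, up to 1000, belongs to lists that the authors filtered on the irreproducible discovery rate, per the file listing in the labels. Which inputs each series-wide list pairs is not known here. Read depth is unknown, so no interval that needs it is given, and no control chromatin was analysed here.

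Gene models came from Ensembl release 115 and bases from the RefSeq genome (both WBcel235, the same assembly as ce11). A territory ended at the nearest protein-coding gene on either strand. A replicate's value is the signal of its ranked peak that overlaps by 1 bp or more and has the nearest summit. Motif windows reached 50 bp to each side. Percentiles give the share of genes with a lower highest value, and genes without a ranked peak count as 0. With 1 group and 2 replicates no test was made. Summit assignment was checked on simulated data with 200 planted summits per set. Members, lists and motifs were chosen with earlier results of these data known. By rule the text names all members, their thresholded summits and highest ranked peak, neighbours that bound a marked territory, and genes of the Hox list with a summit, with its other genes listed to complete the counts. The alternatives were another list, another territory, each replicate's own list and other windows; a score limit of 540, in either series-wide ranked list, was chosen after seeing the data. Ranked peaks are those of the first such list, from which the thresholded list comes by coordinates and signal, unless the second is named. Python 3.11.15, numpy 2.4.6, pandas 2.3.3 and matplotlib 3.10.9 were used.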

Additional observations from a re-analysis of the deposited data

How the results depend on the processing

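No paired analysis was possible because both replicates belong to 1 group. Leaving out a replicate here means taking the other replicate's own thresholded list. These lists are shorter, with 2000 peaks for replicate 2 and 1728 for replicate 1, against 3559 in the series-wide list. The count of 3 marked members was 2 without replicate 1, 2 without replicate 2, 2 in the conservative list and among peaks of above-median signal, 2 with the upstream part only or by nearest 5′ end, and 3 with upstream limited to 2 kb, with the downstream part added, with the next gene of any biotype as the end, by overlap of 1 bp, and in the ranked list at a score of 830. It was 5 at a score of 540, and 2 at that score in the second ranked list. The share of all protein-coding genes, 15.3%, moved as well. It was 9.62% without replicate 1, 8.55% without replicate 2, 15.3% in the conservative list and 9.19% among peaks of above-median signal. With the upstream part only it was 10.9%, by nearest 5′ end 13.3% and with upstream limited to 2 kb 12.6%. With the downstream part added it was 19.4%, and at a score of 540 it was 23.3% and 22.9% in the 2 ranked lists. By nearest 5′ end the marked members were ceh-60 and ceh-20, not unc-62; with the upstream part only they were the same pair. The count of 4 summits was 2 without replicate 1, 2 without replicate 2, 2 with the upstream part only and 8 at a score of 540; it was 6 at that score in the second ranked list and 3 to 5 elsewhere. Motif windows of 25 bp to each side gave 0 member summits with TTTATG, and those of 100 bp gave 2 with TTTATG, 2 with TGATNNAT and 1 with TTTACG. Read depth limits what the lists could hold, and 4 summits are too few to rank motifs.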
